A study of Homo sapiens with 6 samples.

Results

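The 17-beta hydroxysteroid dehydrogenases were examined in an established glioma line of human origin, U87, that carried 1 of 3 constructs. The family was picked on the basis of the fall of HSD17B2 in all 5 IL-33 clones, so the difference of HSD17B2 from control is a description here and carries no test. Of the 9 genes listed (HSD17B1, HSD17B2, HSD17B4, HSD17B6, HSD17B8, HSD17B10, HSD17B11, HSD17B12 and HSD17B14), 8 had at least 1 probe set annotated to that gene alone, with 18 probe sets among the 49395 of the array. These 8 were among 18132 genes with a value. The only probe set of HSD17B6, an enzyme that oxidizes androgens, also named RDH16, and HSD17B6 was therefore given no value.

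The control was a U87 stable transfectant with the empty pcDNA vector, measured on 1 array. The labels do not say whether it was 1 clone or a pool. The IL-33 group held 3 clones with full-length human IL-33, numbered 3, 5 and 9. The ΔNLS group held 2 clones, numbered 3 and 4, whose IL-33 had no nuclear localization signal, labelled IL33 DNLS. All 3 groups shared the same parental line and, per the study's methods, selection with G418, and each array of IL-33 or ΔNLS was 1 clone. IL-33 is an IL-1 family cytokine that is also held in the nucleus on chromatin, and the design compares cells with nuclear and secreted IL-33, cells with mainly secreted IL-33, and cells with neither.

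Enzymes of this family are oxidoreductases that use NAD or NADP. The classical members switch the hormones estradiol and testosterone between their active 17-hydroxy form and their weaker 17-keto form, and whether a tissue holds the reducing or the oxidizing members sets how much active hormone its cells see. Other members share the name but work mainly on lipids: in peroxisomes, on lipid droplets, in the elongation of fatty acids at the endoplasmic reticulum, or in mitochondria. Glial cells and gliomas express members of both kinds.

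The transfected gene IL33 was at 3.46 with the empty vector, 6.40 to 9.50 with full-length IL-33 and 6.50 and 6.62 with ΔNLS (log2 expression, the scale of all levels below). The glioma and astroglial genes VIM, CD44, NES, GFAP, SOX9 and MET lay above the background level of 4.80 on all 6 arrays, and PTPRC, CD3E, ALB and EPCAM, which mark leukocytes, T cells, hepatocytes and epithelium, lay below it on all 6. The keratin gene KRT5 was the exception among the markers of other cells, at 4.85 to 5.65. The median over all probe sets was 5.61 to 5.62 on the control array and those of IL-33 but 5.43 on both ΔNLS arrays, and an effect of the ΔNLS construct cannot be told apart from one of its arrays. Over all genes the median difference was 0.04 for IL-33 minus control, −0.09 for ΔNLS minus control and 0.13 for IL-33 minus ΔNLS. As the sources do not state that clones were grown or run separately, p-values reflect the spread among these arrays only, and the single control was assumed to vary as the clones did.

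HSD17B2 was expressed in the control and was not above background in any clone. This enzyme of the endoplasmic reticulum oxidizes estradiol to estrone and testosterone to androstenedione and so lowers active hormone. Its single probe set, on a gene of chromosome 16, read 7.74 in the control. It read 2.64, 2.55 and 2.70 in clones 3, 5 and 9 of IL-33. The corresponding readings of ΔNLS clones 3 and 4 were 2.53 and 2.71. The 5 clones lay within 0.18 of each other and were all under the level of 4.80, whereas the control was well over it. Because the clones give only a bound, the control was at least 7.65-fold higher than either construct, taking the background level in place of the dim readings. The measured means were 2.63 ± 0.07 (SD, n = 3) in IL-33 and 2.62 ± 0.12 (SD, n = 2) in ΔNLS.

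**Figure D1:**
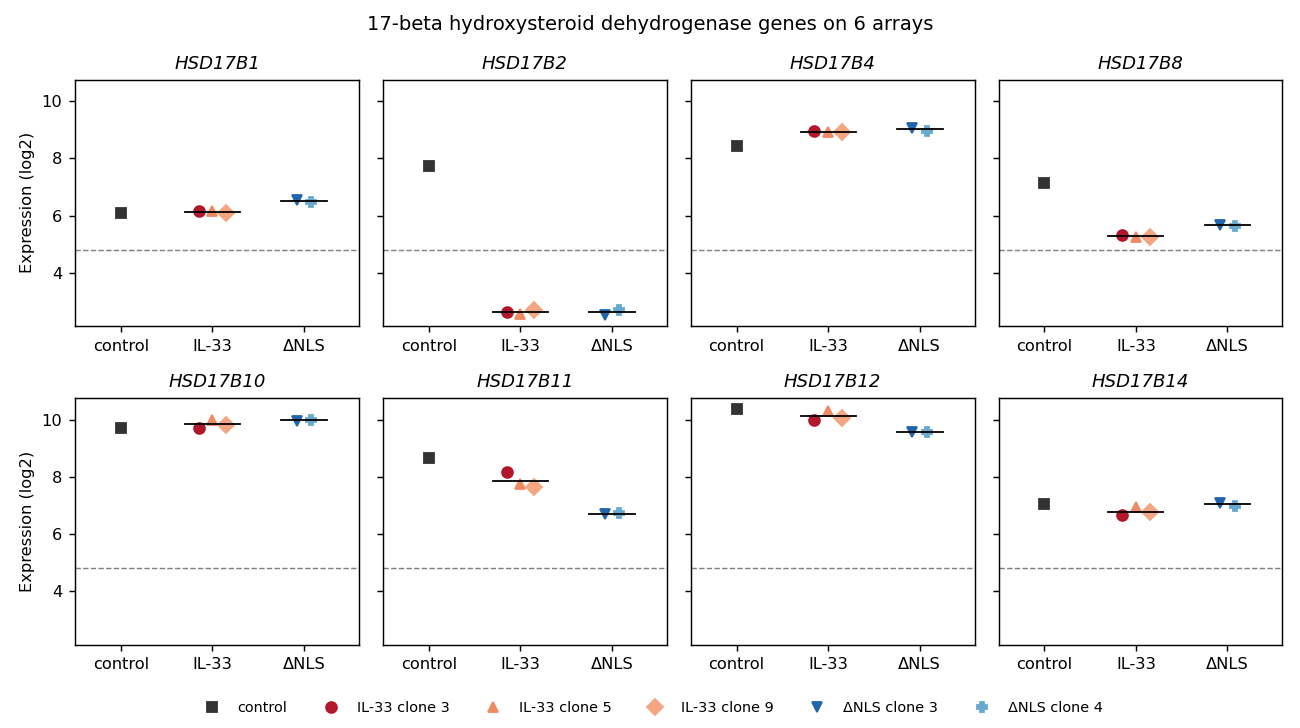
Expression (log2) of the 8 measured genes on each of the 6 arrays, 1 panel per gene; points are arrays, solid lines are group means and the dashed line is the background level of 4.80. HSD17B2 is above the dashed line only in the control (7.74), HSD17B8 lies between 5.26 and 5.67 in the clones against 7.13 in the control, and HSD17B11 and HSD17B12 are lowest in the ΔNLS clones.

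The genes whose differences from control across the 5 clones came nearest to those of HSD17B2 were TRPM8, SYTL5, RHOU, CPE and TMEM200A by root mean square distance (log2, over 5 clones, 18131 genes compared). As most of their clone readings lay below background, no order is given among them. TRPM8, which encodes a cold-sensing ion channel, was at 7.09 in the control and between 2.32 and 3.40 in the clones. CPE, which trims prohormones, differed among clones, with 5.45, 3.77 and 5.17 in IL-33 clones 3, 5 and 9. These 5 genes were selected by their likeness to HSD17B2 and were not tested. They lie on chromosomes 2, X, 1, 4 and 6, and none is on chromosome 16.

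Of the 10 nearest measured genes, 6 were above background in the control, and none of these 6 came near the difference measured for HSD17B2. Along chromosome 16 these neighbours were PKD1L2, BCO1, CMIP, PLCG2 and SDR42E1 on one side and HSBP1, MLYCD, OSGIN1, NECAB2 and SLC38A8 on the other. PKD1L2, PLCG2, SDR42E1 and SLC38A8 were below background in the control already, and these 4 could not show a fall. CMIP, which encodes an adaptor of T cell signalling, was at 8.93 in the control and 8.32, 8.22 and 8.06 in the IL-33 clones, a fall of 0.74 (adjusted p = 0.0497). Without IL-33 clone 3, 5 or 9 its adjusted p was 0.0552, 0.0612 and 0.113. In ΔNLS, CMIP read 8.70 and 8.94 and its difference of −0.12 did not pass (adjusted p = 0.611). HSBP1, on the other side, was at 10.78 in the control and 10.79 to 11.40 in the clones. MLYCD, which encodes malonyl-CoA decarboxylase, was at 6.76 in the control and 6.79 to 7.74 in the clones. The median difference over the 548 genes of chromosome 16 with a mean above background was 0.08 in IL-33 and 0.18 in ΔNLS.

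**Figure D2:**
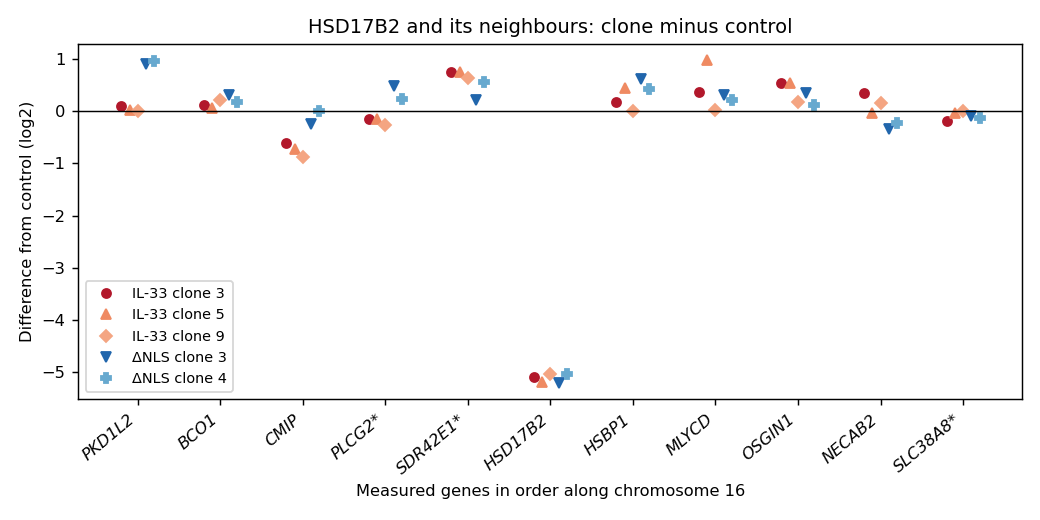
Difference from the control array (log2) of HSD17B2 and the 10 nearest measured genes in their order along chromosome 16, with 1 point per clone; an asterisk marks genes below background on all 6 arrays. The points of HSD17B2 lie at about −5.1 in all 5 clones, and those of the 6 neighbours above background in the control lie between −0.88 and 0.98, while the other 4 had no level from which to fall.

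The other 7 measured members were above background on all 6 arrays, each by the probe set with the highest mean. In IL-33 against control 1 of the 7 fell (HSD17B8), 0 rose and 6 did not pass limma's test at an adjusted p of 0.05, where 4.00% of all genes were called lower and 3.65% higher. At an unadjusted p under 0.05 the count was 3 of 7, where 26.3% of all genes (4760 of 18132) passed. In ΔNLS against control 3 fell (HSD17B8, HSD17B11 and HSD17B12), 2 rose (HSD17B1 and HSD17B4) and 2 did not pass, against 23.5% of all genes lower and 14.8% higher. In IL-33 against ΔNLS 2 were higher (HSD17B11 and HSD17B12), 2 lower (HSD17B1 and HSD17B8) and 3 did not pass, where 31.4% and 16.1% of all genes were called higher and lower. All 5 clones lay below the control for 3 of the 7 and above it for 1, against 20.7% and 22.2% of all genes. The median difference of the 7 was −0.24 in IL-33 against control and −0.00072 in ΔNLS against control, beside 0.04 and −0.09 over all genes. Both comparisons share the 1 control array.

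HSD17B8 was the member that fell in both constructs. It is a mitochondrial enzyme that, paired with CBR4, forms the ketoacyl reductase of mitochondrial fatty acid synthesis, and it can also oxidize estradiol. Its single probe set read 7.13 in the control, 5.33, 5.27 and 5.26 in clones 3, 5 and 9 of IL-33, and 5.67 and 5.65 in the ΔNLS clones (3 and 4). No clone came within 1 log2 unit of the control. The log2 difference from control was −1.85 ± 0.10 (SE, adjusted p = 0.00233) in IL-33, a 3.60-fold fall, and −1.48 ± 0.11 (adjusted p = 0.00140) in ΔNLS, a 2.78-fold fall. IL-33 was lower than ΔNLS by −0.37 ± 0.08 (adjusted p = 0.0144). This last difference was called in 13 of 13 alternatives at the threshold of 0.05, with values from −0.57 to −0.36. It did not pass at an adjusted p of 0.01 and at least a 2-fold change. The call in IL-33 against control was lost without ΔNLS clone 3 (adjusted p = 0.0693), without ΔNLS clone 4 (0.0691) and with the IL-33 and control arrays alone (0.0692). In those fits the difference was the same −1.85, but limma called 0 of the 18132 genes, with 4441 to 4445 at an unadjusted p under 0.05. The adjacent measured genes on chromosome 6, SLC39A7, a zinc transporter, and RING1, a Polycomb subunit, had differences of 0.18 and 0.26 in IL-33 that did not pass (adjusted p = 0.527 and 0.252).

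Promoter sequence is shown for HSD17B8 and HSD17B11, the members other than HSD17B2 with the largest falls, since both were lower in all 5 clones. RefSeq promoter entries matched 4 of the 8 measured members, HSD17B4, HSD17B8, HSD17B10 and HSD17B11. Each line gives the 250 bases before the start of the gene (GRCh38.p14), 5′ to 3′ on the strand of the gene, with the CCAAT motif, read on either strand (CCAAT or ATTGG), in capitals.
HSD17B8, chr6:33204405-33204654, plus strand: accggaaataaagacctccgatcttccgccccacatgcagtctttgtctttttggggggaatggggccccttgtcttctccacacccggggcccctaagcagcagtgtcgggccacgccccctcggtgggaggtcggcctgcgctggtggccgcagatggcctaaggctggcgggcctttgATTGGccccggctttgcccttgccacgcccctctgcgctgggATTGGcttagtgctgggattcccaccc
HSD17B11, chr4:87391189-87391438, minus strand: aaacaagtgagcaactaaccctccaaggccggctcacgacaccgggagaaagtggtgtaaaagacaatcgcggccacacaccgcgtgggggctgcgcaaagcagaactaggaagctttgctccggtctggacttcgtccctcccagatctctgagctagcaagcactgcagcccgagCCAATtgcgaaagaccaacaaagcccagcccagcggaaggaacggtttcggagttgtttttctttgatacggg
The window of HSD17B8 held 2 CCAAT motifs, 64 and 22 bases before the start, and that of HSD17B11 held 1, at 68 bases. Of 35093 promoters of the same length, 32.0% held CCAAT on either strand. The GC box (GGGCGG, either strand, which does not overlap CCAAT) was present once in the window of HSD17B8 and in 42.6% of all promoters, and neither window held TATAAA, present in 10.7%. The other windows held 2 CCAAT motifs in HSD17B10 and 0 in HSD17B4. These are matches of letters and are not evidence of bound factors.

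HSD17B11 fell in ΔNLS and lay between control and ΔNLS in the IL-33 clones. It is a short-chain dehydrogenase of lipid droplets and the endoplasmic reticulum that acts on androgen metabolites. The control read 8.66, IL-33 clones 3, 5 and 9 read 8.17, 7.76 and 7.66, and ΔNLS clones 3 and 4 read 6.70 and 6.73. Clone 3 was the IL-33 clone nearest to the control. In ΔNLS against control the difference was −1.94 ± 0.22 (adjusted p = 0.00333), a 3.84-fold fall, which held in 13 of 13 alternatives. In IL-33 it was −0.79 ± 0.21 (adjusted p = 0.0788), which did not pass, and without IL-33 clone 3 it was −0.95 and passed (adjusted p = 0.0259). IL-33 was higher than ΔNLS by 1.15 ± 0.17 (adjusted p = 0.00394), with an adjusted p of 0.0627 without ΔNLS clone 3 and 0.0608 without ΔNLS clone 4. A second probe set of HSD17B11 had the groups, though not the single clones, in the same order. It read 7.17 in the control, 6.71, 6.12 and 6.26 in IL-33, and 5.58 and 5.37 in ΔNLS.

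HSD17B11 lies on chromosome 4, whose genes were lower in the clones as a whole. Over the 403 genes of chromosome 4 with a mean above background, the median difference from control was −0.35, −0.56 and −0.44 in clones 3, 5 and 9 of IL-33, with −0.76 in clone 3 and −0.81 in clone 4 of ΔNLS. On the 7 other chromosomes that hold measured members, the median of the mean difference in either construct lay between −0.16 and 0.18. Relative to the chromosome 4 median, HSD17B11 was lower by −0.35 in IL-33 and by −1.15 in ΔNLS. In IL-33 23.3% of these 403 genes, and in ΔNLS 8.44%, had a more negative difference than HSD17B11. The adjacent gene NUDT9, which encodes an ADP-ribose hydrolase, was at 9.46 in the control, 8.94 to 9.09 in IL-33, and 8.40 and 7.92 in ΔNLS, a fall of 1.30 in ΔNLS (adjusted p = 0.00732). HSD17B13, the adjacent gene on the other side and a liver lipid droplet relative of HSD17B11, was below background on all 6 arrays. The part of the chromosome-wide shift in the HSD17B11 result was not tested beyond these values.

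**Figure D3:**
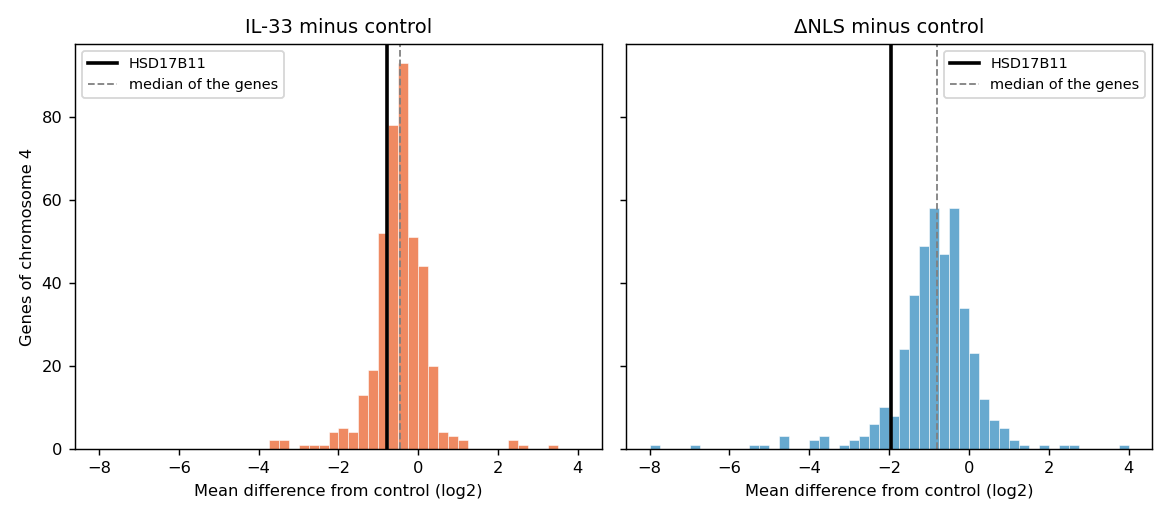
Histograms of the mean difference from control (log2) over the 403 genes of chromosome 4 with a mean above background, for IL-33 (left) and ΔNLS (right); the solid line marks HSD17B11 and the dashed line the median of the genes. HSD17B11 is at −0.79 against a median of −0.45 in IL-33 and at −1.94 against −0.79 in ΔNLS.

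HSD17B12 and HSD17B4 are the lipid enzymes of the endoplasmic reticulum and the peroxisome. HSD17B12 is the ketoacyl-CoA reductase of very long chain fatty acid elongation and can also reduce estrone. It read 10.36 in the control, 9.99, 10.30 and 10.06 in clones 3, 5 and 9 of IL-33, and 9.56 and 9.57 in ΔNLS. The ΔNLS clones were lowest and all 5 clones were under the control. The fall in ΔNLS was −0.79 ± 0.15 (adjusted p = 0.0120), the difference in IL-33 was −0.24 (adjusted p = 0.354), and IL-33 was higher than ΔNLS by 0.55 ± 0.11 (adjusted p = 0.0114). Without ΔNLS clone 3 or clone 4 the fall in ΔNLS had an adjusted p of 0.0811 or 0.0774, and the difference between constructs one of 0.0972 or 0.0948. A second probe set of HSD17B12 read 9.50 in the control, 9.10 to 9.35 in IL-33 and 9.13 in both ΔNLS clones. There the difference of ΔNLS from control was −0.37 and did not pass (adjusted p = 0.0759 over all probe sets), nor did that between the constructs (0.10, adjusted p = 0.436).

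HSD17B4 is the bifunctional hydratase and dehydrogenase of peroxisomal beta-oxidation and also oxidizes estradiol. It read 8.43 in the control, 8.94, 8.91 and 8.91 in IL-33, and 9.08 and 8.95 in ΔNLS. All 5 clones were above the control and, on this probe set, the constructs lay close to each other. It rose in ΔNLS by 0.59 ± 0.11 (adjusted p = 0.0124), called in 13 of 13 alternatives at the threshold of 0.05. The rise did not pass at an adjusted p of 0.01 and at least a 2-fold change. In IL-33 the difference was 0.49 ± 0.11 with an adjusted p of 0.0513, and it passed in 5 of 13 alternatives, with adjusted p from 0.0414 to 0.124. The difference of IL-33 from ΔNLS was −0.10, with a 95% interval of −0.31 to 0.11. Both other probe sets of HSD17B4 were also above the control in all 5 clones, by 0.27 to 0.84. That at 7.94 in the control rose in ΔNLS by 0.77 (adjusted p = 0.00630 over all probe sets). There IL-33 minus ΔNLS was −0.46 and passed (adjusted p = 0.00929). On that at 8.20 in the control, the ΔNLS difference of 0.42 did not pass (adjusted p = 0.0751), nor did −0.07 between the constructs (adjusted p = 0.631).

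**Figure D4:**
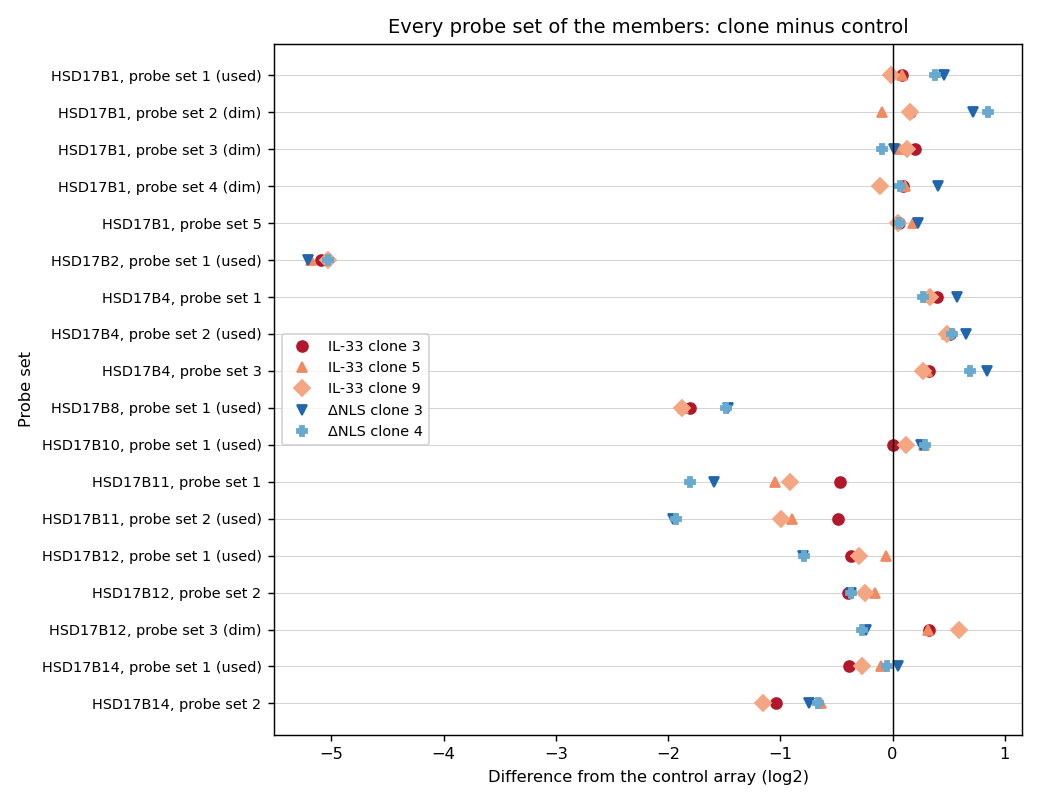
Difference from the control array (log2) of each clone for all 18 probe sets of the 8 measured members; "used" marks the probe set taken for the gene and "dim" those below background on all 6 arrays. The probe sets of HSD17B4 and HSD17B11 keep their direction in all 5 clones, while the 2 of HSD17B14 do not lie together.

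Of the remaining members, HSD17B1 rose in ΔNLS, while HSD17B10 and HSD17B14 did not pass in any of the 3 comparisons. HSD17B1, which reduces estrone to estradiol and is the activating counterpart of HSD17B2, read 6.09 in the control, 6.17, 6.17 and 6.08 in IL-33, and 6.55 and 6.47 in ΔNLS. The ΔNLS clones were higher than all other arrays. The rise in ΔNLS was 0.42 ± 0.12 (adjusted p = 0.0392) and IL-33 was lower than ΔNLS by −0.37 ± 0.09 (adjusted p = 0.0195). The rise in ΔNLS passed in 6 of 13 alternatives; it was lost without IL-33 clone 3 (adjusted p = 0.0685) or 9 (0.0636) and without ΔNLS clone 3 (0.0763) or 4 (0.0572). The difference between constructs was lost without IL-33 clone 9 (0.0610), without ΔNLS clone 3 (0.0632), with the mean of all probe sets (−0.23, adjusted p = 0.0502) and with values below background set to it (0.0575). Of the 5 probe sets of HSD17B1, 3 were below background on all arrays, and the remaining one beside that used was at 4.93 to 5.16, with a difference of 0.14 in ΔNLS (adjusted p = 0.460 over all probe sets).

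HSD17B10, a mitochondrial enzyme of isoleucine breakdown that is also a subunit of the RNase P of mitochondria, read 9.70 in the control, 9.70, 9.98 and 9.82 in IL-33, and 9.96 and 9.99 in ΔNLS. IL-33 clone 3 had a value identical to that of the control, a tie of the kind found for 21.3% of genes on the control and IL-33 arrays. Clone 5 lay between the ΔNLS clones. Its differences from control were 0.13 in IL-33 (95% interval −0.19 to 0.46) and 0.27 in ΔNLS (−0.07 to 0.62), and neither passed. HSD17B14, a cytosolic member that can oxidize estradiol, read 7.04 in the control, 6.66, 6.94 and 6.77 in IL-33, and 7.09 and 6.99 in ΔNLS. It did not pass in either construct (adjusted p = 0.347 and 0.998). The difference of IL-33 from ΔNLS was −0.25 and did not pass (adjusted p = 0.121). That difference passed in 2 of 13 alternatives, without IL-33 clone 5 and after quantile normalization. The second probe set of HSD17B14 went apart from the one used. It read 6.70 in the control and 5.66, 6.07, 5.55, 5.96 and 6.04 in the 5 clones, all below the control, with differences of −0.94 in IL-33 and −0.70 in ΔNLS that did not pass over all probe sets (adjusted p = 0.0550 and 0.0526).

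Other genes of estrogen and androgen conversion were compared as a list of 24, of which 20 were measured and 7 were above background on at least 1 array. In IL-33 against control 1 rose (CYP1B1), 1 fell (SRD5A1) and 18 did not pass, beside 3.65% higher and 4.00% lower of all genes. In ΔNLS 4 were called higher, 3 lower and 13 did not pass, beside 14.8% and 23.5% of all genes. Of the ΔNLS calls, 2 of the 4 higher (CYP17A1 and CYP1A1) and 3 of the 3 lower (SULT2A1, SRD5A2 and UGT2B7) were of genes below background on all 6 arrays. The median difference was 0.0037 in IL-33 and −0.11 in ΔNLS, close to that of all genes. CYP1B1, which hydroxylates estradiol, was at 10.23 in the control, 11.24, 11.19 and 11.68 in IL-33, and 11.63 and 11.40 in ΔNLS. It rose by 1.14 ± 0.21 in IL-33 (adjusted p = 0.0362) and 1.29 ± 0.23 in ΔNLS (adjusted p = 0.00947). SRD5A1, which reduces testosterone to dihydrotestosterone, was at 7.46 in the control and 6.77, 6.85 and 6.81 in IL-33, a fall of 0.65 ± 0.11 (adjusted p = 0.0311). Without IL-33 clone 9 the adjusted p in IL-33 was 0.0508 for CYP1B1 and 0.0894 for SRD5A1, without IL-33 clone 3 it was 0.0563 for SRD5A1, and CYP1B1 in ΔNLS had 0.0865 without ΔNLS clone 3 and 0.0641 without ΔNLS clone 4. STS, the sulfatase that frees estrone and other steroids, was at 6.79 in the control and 5.29 to 6.55 in the clones, with no difference past the test. Aromatase (CYP19A1), which makes estrogens from androgens, was below background on all 6 arrays.

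Of 14 steroid and related nuclear receptors and their cofactors, 11 were measured and 7 were above background on at least 1 array. In IL-33 0 were called higher and 2 lower, beside 3.65% and 4.00% of all genes. In ΔNLS 1 was called higher and 8 lower, beside 14.8% and 23.5% of all genes. Of these 8, 3 (NR3C2, ESRRB and ESRRG) were below background on all 6 arrays. The median differences were −0.11 in IL-33 and −0.62 in ΔNLS, beside 0.04 and −0.09 over all genes. NR3C1, the glucocorticoid receptor, read 9.87 in the control, 9.44, 9.29 and 9.27 in IL-33 and 8.90 and 8.92 in ΔNLS, a fall of 0.54 in IL-33 (adjusted p = 0.0476) and 0.96 in ΔNLS (adjusted p = 0.00406). The fall of NR3C1 in IL-33 had an adjusted p of 0.0543 without IL-33 clone 5 and 0.122 without clone 9. The other receptor called lower in IL-33, ESRRG, was below background on all 6 arrays. ESR2, an estrogen receptor, was at 5.04 in the control, 5.26 to 5.35 in IL-33, and 4.29 and 4.52 in ΔNLS. Both ΔNLS readings of ESR2 were below background and that of the control was just above it, so the size of the difference was not measured. With the mean of its probe sets ESR2 did not pass limma's test. There its difference was −0.035 in ΔNLS against control (adjusted p = 0.814) and 0.083 in IL-33 against ΔNLS (adjusted p = 0.421).

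**Figure D5:**
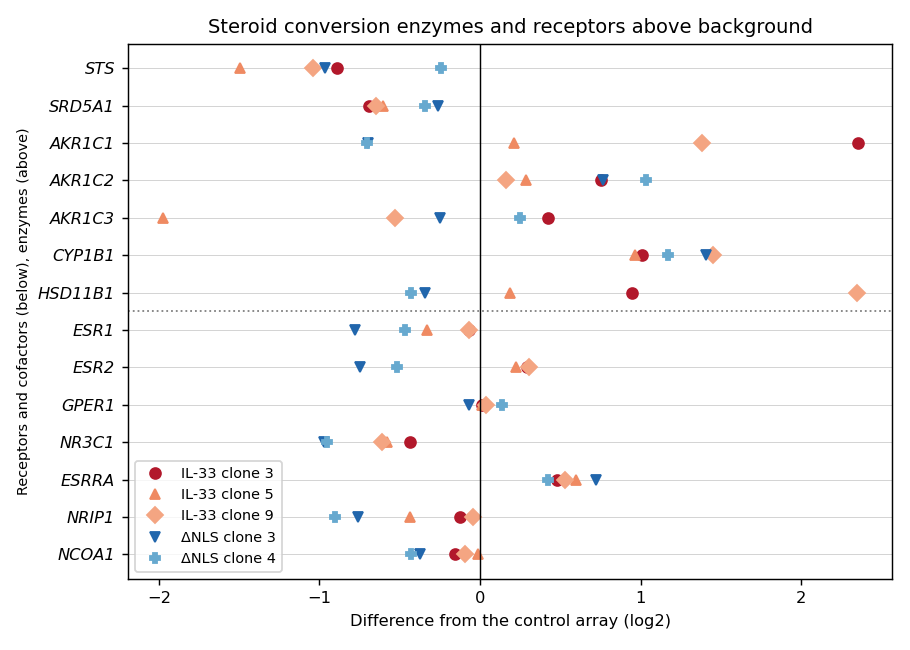
Difference from the control array (log2) of each clone for the 14 genes of steroid conversion (above the dotted line) and steroid receptors and cofactors (below it) that were above background on at least 1 array. All 5 clones are above the control for CYP1B1, AKR1C2 and ESRRA and below it for STS, SRD5A1, NR3C1, ESR1, NRIP1 and NCOA1. AKR1C1 and AKR1C3 spread widely among clones. HSD11B1 also spreads, but it was above background on 1 array only, that of IL-33 clone 9 (6.12). The AKR1C genes are close relatives whose probes may share targets.

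Genes of the pathways of the lipid members were read beside the shares over all genes, 3.65% higher and 4.00% lower in IL-33 and 14.8% higher and 23.5% lower in ΔNLS. Of 18 measured genes of peroxisomal beta-oxidation, the pathway of HSD17B4, 1 rose and 1 fell in IL-33, and 3 were called higher and 6 lower in ΔNLS, of which EHHADH and ABCD2, both called lower, were below background on all 6 arrays. HACL1, a lyase of alpha-oxidation, rose by 1.04 in IL-33 (adjusted p = 0.0220) and 0.92 in ΔNLS (adjusted p = 0.00953). ACOX3 is an oxidase for branched chains whose gene is on chromosome 4. It fell by 1.01 in IL-33 (adjusted p = 0.0188) and 0.83 in ΔNLS (adjusted p = 0.00968). CAT, the peroxisomal catalase, read 7.97 in the control, 8.57, 9.00 and 8.66 in IL-33 and 9.81 and 9.84 in ΔNLS, and rose in ΔNLS by 1.85 (adjusted p = 0.00274). Of 16 measured genes of very long chain fatty acid elongation, the pathway of HSD17B12, 2 rose and 1 fell in IL-33, and 6 rose and 2 fell in ΔNLS. ELOVL7, an elongase, rose by 1.96 in IL-33 (adjusted p = 0.0284) and 1.40 in ΔNLS (adjusted p = 0.0248). The ELOVL7 call in ΔNLS was lost with the mean of its probe sets. FADS1, a desaturase, rose by 0.81 in IL-33 (adjusted p = 0.0338) and 0.87 in ΔNLS (adjusted p = 0.00978). ELOVL6, an elongase whose gene is on chromosome 4, was at 9.44 in the control, 8.38 to 8.72 in IL-33, and 7.68 and 7.74 in ΔNLS, a fall of 0.88 (adjusted p = 0.0315) and 1.73 (adjusted p = 0.00224). These IL-33 calls were lost when clone 9 was left out, at adjusted p of 0.0664 for HACL1 and ELOVL7, 0.0508 for ACOX3, 0.0854 for FADS1 and 0.0593 for ELOVL6.

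Of 8 measured genes of mitochondrial fatty acid synthesis, the pathway of HSD17B8, 0 changed in IL-33 by limma's test and 2 fell in ΔNLS. Over all genes, 3.65% were called higher and 4.00% lower in IL-33, and 14.8% higher and 23.5% lower in ΔNLS. CBR4, the partner of HSD17B8, was at 7.54 in the control, 7.35, 7.06 and 7.22 in IL-33 and 6.51 and 6.29 in ΔNLS. It fell in ΔNLS by 1.14 ± 0.17 (adjusted p = 0.00618), with a difference of −0.33 in IL-33 (adjusted p = 0.270). LIAS, the lipoyl synthase, fell in ΔNLS by 0.84 (adjusted p = 0.0131), with an adjusted p of 0.0525 without ΔNLS clone 3 and 0.0712 without ΔNLS clone 4. Both CBR4 and LIAS are on chromosome 4, with the median shift given above. Of 16 measured lipid droplet genes, the compartment of HSD17B11, 0 passed in IL-33, and 3 were called higher and 1 lower in ΔNLS, PLIN5 among the 3 being below background on all 6 arrays. PNPLA3, a lipase of lipid droplets, was at 7.44 in the control, 7.03 to 7.45 in IL-33 and 8.89 and 8.79 in ΔNLS, a rise of 1.40 in ΔNLS (adjusted p = 0.00563) that had an adjusted p of 0.0602 without ΔNLS clone 3 and 0.0532 without ΔNLS clone 4.

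Of 17 measured genes of mitochondrial RNase P and of the breakdown of isoleucine and its relatives, the pathways of HSD17B10, 1 rose and 3 fell in IL-33, and 7 rose and 2 fell in ΔNLS. The shares of all genes called higher and lower were 3.65% and 4.00% in IL-33 and 14.8% and 23.5% in ΔNLS. AUH, a hydratase of leucine breakdown, rose in both constructs, by 1.10 (adjusted p = 0.0198) and 1.50 (adjusted p = 0.00302). BCAT1, the cytosolic branched-chain aminotransferase, fell in both, by 1.14 (adjusted p = 0.0180) and 1.61 (adjusted p = 0.00250). BCAT2, the mitochondrial form, which neighbours HSD17B14 on chromosome 19, was at 7.49 in the control, 6.83 to 6.89 in IL-33, and 8.23 and 8.26 in ΔNLS. BCAT2 thus fell in IL-33 by 0.63 (adjusted p = 0.0295), rose in ΔNLS by 0.75 (adjusted p = 0.00618), and differed between the constructs by −1.38 (adjusted p = 0.000749). Without IL-33 clone 9 the adjusted p in IL-33 was 0.0696 for AUH, 0.0648 for BCAT1 and 0.0833 for BCAT2, and without IL-33 clone 3 that of BCAT2 was 0.0527.

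Among 27 measured short-chain dehydrogenases outside the family, 1 rose and 3 fell in IL-33, beside 3.65% higher and 4.00% lower of all genes. In ΔNLS 5 were called higher and 10 lower, beside 14.8% and 23.5% of all genes. Of the 10, 4 (RDH16, SDR9C7, HPGD and BDH1) were below background on all 6 arrays. The median differences were −0.18 in IL-33 and −0.37 in ΔNLS. KDSR, a reductase of sphingolipid synthesis, rose by 1.40 in IL-33 (adjusted p = 0.0226) and 0.92 in ΔNLS (adjusted p = 0.0232). The KDSR call in ΔNLS was lost with the mean of its probe sets. WWOX, on chromosome 16, is an oxidoreductase and tumor suppressor. It was at 7.13 in the control, 5.94, 6.003 and 5.55 in IL-33, and 6.34 and 6.27 in ΔNLS. The fall was 1.30 in IL-33 (adjusted p = 0.0233) and 0.83 in ΔNLS (adjusted p = 0.0272). Neither fall passed with the mean of its probe sets (adjusted p = 0.118 in IL-33). DCXR, a xylulose reductase, fell in IL-33 by 0.70 (adjusted p = 0.0270) and SDR39U1 fell by 0.73 (adjusted p = 0.0251), and both were lower in IL-33 than in ΔNLS, by −1.12 (adjusted p = 0.00103) and −1.06 (adjusted p = 0.00114). In IL-33 against control, 19 genes outside the family that the naming rule took passed in limma. Without IL-33 clone 9, 1 of them passed (WWOX, adjusted p = 0.0382), with adjusted p of 0.0508 to 0.122 for the other 18. Calls over all genes went from 1387 to 341 in that fit, so the losses are not particular to the 19. In ΔNLS against control 41 such genes passed. Calls were lost in both sets of genes when a ΔNLS clone was left out, as they were over all genes. Such fits hold 1 array of that group and cannot judge single genes.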

How the data were processed

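Expression of 6 samples was measured by the authors on Affymetrix PrimeView arrays after 3′ in vitro transcription labelling, and the deposited values are log2 levels, 1 per probe set and array, already normalized by the authors. The submitters' processing notes name Partek 6.0; the normalization method is not given in the sources used here. Base 2 was taken from the range of the values (highest 14.16).

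Probe sets with 1 gene symbol (44994) were kept, and the one with the highest mean over the arrays stood for each of 18132 genes, named through RefSeq (GRCh38.p14). Background was the 95th percentile of 341 olfactory receptor genes. Groups were compared with limma 3.58.1 in R 4.3.3 (lmFit, eBayes with trend, two-sided, Benjamini-Hochberg over all genes, threshold 0.05) in 1 fit of 6 arrays with 3 group means, 3 residual and 2.81 prior degrees of freedom, and the script was tested on simulated data. The study's methods name a test made for counts, which these are not. The number of arrays limits the precision.

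The members, gene lists and named genes were chosen with earlier results of these data known. Named genes were the members, IL33, the 5 genes most like HSD17B2, the nearest measured genes and, from each list, those with the smallest p. CYP19A1 and the genes singled out from the plot of steroid genes were chosen after their values were seen. Alternatives were the arrays of the compared groups only, each clone left out, other moderation, mean or single probe sets, quantile normalization, and a filter or floor at background. A stricter threshold was also applied to the main fit and is not among the 13 alternatives counted for single genes.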

Additional observations from a re-analysis of the deposited data

How the results depend on the processing

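Counts are of the 7 tested members that passed. In IL-33 against control 1 passed as reported, 0 with the arrays of the compared groups alone, and 2 without the trend, with robust moderation, after quantile normalization, with genes above background on at least 1 array, and with values below background set to it; leaving out each clone gave 0 to 2. The additional member was HSD17B4 in these, and HSD17B11 without IL-33 clone 3. With the IL-33 and control arrays alone, limma called 0 of the 18132 genes in IL-33 against control. In ΔNLS against control 5 passed, 2 at an adjusted p of 0.01 and at least a 2-fold change, and 3 to 5 with a clone left out. In IL-33 against ΔNLS 4 passed, 1 at the stricter threshold, and 1 to 5 with a clone left out. The count of all genes that passed in IL-33 against control went from 1387 to 341 without IL-33 clone 9, to 692 with values below background set to it and to 152 at the stricter threshold; in ΔNLS against control from 6947 to 3219 and 1717, and to 3607 and 3808 without ΔNLS clone 3 or 4; in IL-33 against ΔNLS from 8621 to 3857 and 1306, and to 4737 and 4728. HSD17B14 in ΔNLS against control, near 0 as reported, was −0.054 without ΔNLS clone 3, 0.052 without ΔNLS clone 4 and 0.12 after quantile normalization, and CMIP in IL-33 against ΔNLS was 0.019 (adjusted p = 0.901) with the mean of its probe sets. For these the cause was not tested. Over the members, 243 single values stayed on their side of the threshold, 20 no longer passed, 8 newly passed and 2 changed sign. Genes below background in both groups have no difference once values are set to background. No paired analysis was made, because the sources give no pairing of clones between the constructs. Signal over background limits HSD17B2, which has a bound in the clones. Identical values on at least 2 of the control and IL-33 arrays, found for 21.3% of genes and 2 members, make the spread of those genes look smaller. The 2 members are HSD17B1 (IL-33 clones 3 and 5) and HSD17B10 (control and IL-33 clone 3).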

Other observations

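The family genes HSD17B3, HSD17B7 and HSD17B13, outside the listed 9, were at or near background. HSD17B3, which makes testosterone in the testis, read 3.15 in the control and 2.80 to 3.48 in the clones. HSD17B7, which also acts in cholesterol synthesis, read 4.17 in the control, 4.51, 4.75 and 4.60 in IL-33, and 5.08 and 4.74 in ΔNLS, above the background level of 4.80 on 1 array. The 3 probe sets of HSD17B13 lay between 1.92 and 4.15 on all arrays. The pseudogene HSD17B7P2, which shares sequence with HSD17B7, stayed below background on all arrays. HSD17B4, on chromosome 5, neighbours TNFAIP8, an apoptosis regulator, which read 7.43 in the control, 7.09 to 7.58 in IL-33, and 6.39 and 6.19 in ΔNLS.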
